A study of Mus musculus with 12 samples.

Results

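The genes described here serve the erythroblastic island, in which a central macrophage holds maturing red cell precursors, swallows the nuclei they expel and recycles heme and iron. The set holds 10 genes (Vcam1, Emp, Dnase2a, Cd163, Hmox1, Slc40a1, Slc11a1, Fth1, Trf and Tfrc) of the 57055 gene identifiers in either of 2 count tables, and its members were taken by name for their known roles. The choice of members was made with earlier results of these data known. The GENCODE M21 annotation of the mouse genome (GRCm38) named 9 of them. Emp is not a name in that annotation, and the erythroblast macrophage protein that it stands for was read from Maea, which RefSeq lists with EMP as a synonym. RNA was sequenced in bulk from cells sorted from livers of mouse embryos at E14.5 (C57BL/6 for the HSCs, no strain being given for the macrophages), when the liver is the main blood-forming organ. CD169+ macrophages were sorted from Jag1ff/VavCre+ embryos (Cre positive, 3 libraries) and from Jag1ff/VavCre- embryos (Cre negative, 3 libraries). Hematopoietic stem cells (HSCs), gated as CD45+ and DAPI-negative, without lineage markers or CD48 and with cKit, Sca1 and CD150, came from VavCre+Jag1 f/f embryos (Cre positive, 3 libraries) and from VavCre-Jag1 f/f embryos (Cre negative, 3 libraries, called WT in the labels). All 12 libraries thus carry floxed Jag1, the gene of a Notch ligand, and differ by the Vav-Cre transgene, whose promoter drives recombination throughout the blood lineage, HSCs and macrophages included. The comparison asks how loss of Jag1 from blood cells bears on the island, heme and iron programme of each sorted population.

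In the fetal liver, island macrophages bind erythroblasts through VCAM1 and the erythroblast macrophage protein, and the DNase II enzyme in their lysosomes digests the DNA of expelled nuclei. Hemoglobin is taken up through CD163, heme is opened by heme oxygenase 1, and the freed iron is stored in ferritin or exported by ferroportin (Slc40a1) to plasma transferrin, from which erythroblasts take it through the transferrin receptor. Iron also sets the output of several of these genes after transcription: iron regulatory proteins bind a hairpin, the iron responsive element, and block translation when it lies before the coding region or protect the mRNA when it lies after it.

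The hairpin pattern was looked for in the transcripts of the members because it is the sequence through which ferritin, ferroportin and transferrin receptor share 1 iron sensor. The pattern was a C, any 5 bases, CAGTGN and 5 bases that pair with the first 5, G with T allowed, on the sense strand. Of 21901 protein-coding genes in GENCODE M21, 294 (1.34%) held it in at least 1 transcript, and of the 10 members 3 did. The pattern was chosen for these genes, so finding it in them is not a result of the search. Fth1 and Slc40a1 hold 1 each in the 5′ UTR and Tfrc holds 4 in the 3′ UTR. In the sequences, 5′ to 3′ on the sense strand, capitals mark the loop.
Fth1, 5′ UTR (GRCm38 chr19:9982732-9982760, plus strand): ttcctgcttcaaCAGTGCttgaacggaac
Slc40a1, 5′ UTR (chr1:45925465-45925493, minus strand): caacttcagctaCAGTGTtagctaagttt
Tfrc, 3′ UTR, site nearest the coding region (chr16:32631219-32631247, plus strand): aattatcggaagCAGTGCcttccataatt
Tfrc, 3′ UTR, next site (chr16:32631598-32631626, plus strand): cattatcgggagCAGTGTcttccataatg
Tfrc, 3′ UTR, next but one (chr16:32631663-32631691, plus strand): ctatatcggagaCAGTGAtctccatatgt
Tfrc, 3′ UTR, farthest site (chr16:32631710-32631738, plus strand): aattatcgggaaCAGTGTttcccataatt
The pattern fixes the loops up to their last base. That base is C in Fth1 and 1 Tfrc site, T in Slc40a1 and 2 Tfrc sites and A in the remaining Tfrc site. A match is a run of letters and says nothing of binding in these cells.

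Macrophage libraries held 2602934 to 5366990 counted reads in the Cre positive group and 17230019 to 24658205 in the Cre negative group, so depth and genotype cannot be told apart there, and HSC libraries held 51982064 to 77463770. Jag1 itself measured 0, 10.6 and 6.79 CPM (read counts scaled to library sizes with TMM factors) in Cre positive macrophages, against 52.6, 21.1 and 26.3 CPM in Cre negative ones. In HSCs the libraries labelled Cre positive held 10.5, 0 and 19.5 CPM of it, against 6.53, 6.87 and 1.16 CPM in Cre negative ones, so the targeted gene did not separate the HSC groups. Reads of Jag1 exons that recombination leaves in place enter these values too. The macrophage sort held its defining genes (Csf1r at 81.3 to 897 CPM, Siglec1, which encodes CD169, at 16.2 to 117 CPM, Adgre1, which encodes F4/80, at 22.3 to 403 CPM) and also the sinusoidal endothelial gene Stab2, at 2455 to 5121 CPM. The HSC sort held Kit at 40.1 to 183 CPM and Hlf at 61.9 to 203 CPM, and with them Stab2 at 567 to 1569 CPM and Csf1r at 32.2 to 192 CPM. HSC markers took 0.111% to 0.268% of reads in HSC libraries, endothelial markers 0.889% to 1.73% and macrophage markers 0.212% to 0.337%. Such shares also depend on which genes a list holds. Levels in the HSC sort are therefore those of the sorted sample. Cre negative macrophage replicate 1 stood apart, with 22.3 CPM of Adgre1, against 375 and 403 CPM in the other two of its group, and 1707 CPM of the hepatocyte gene Alb, against 77.1 to 232 CPM in the other 5 macrophage libraries. Results that rest on it are also given without it. The labels do not say whether libraries came from separate embryos, so p-values measure the spread between these libraries, which may be technical.

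In macrophages 9 of the 10 members had the lower mean in Cre positive libraries, as had 56.1% of all genes by fitted level, and Dnase2a and Trf lay lower in each Cre positive than in each Cre negative library. Dnase2a, which digests engulfed nuclear DNA, averaged 0.868 CPM in Cre positive and 44.8 CPM in Cre negative libraries. Trf, the gene of the plasma iron carrier transferrin, averaged 115 and 562 CPM in Cre positive and Cre negative libraries, and Fth1, the heavy chain of ferritin, 636 and 1276 CPM. Cd163, the hemoglobin scavenger receptor, was the member with the higher Cre positive mean, at 50.7 CPM, against 34.9 CPM in Cre negative libraries. With edgeR (quasi-likelihood) and p-values adjusted after Benjamini and Hochberg over all 17806 genes tested, 0 members passed an adjusted p of 0.05, where 0.0% of all genes did (0 genes). At an unadjusted p under 0.05 stood 3 members, all with the lower level, and 965 genes (5.42%), of which 874 (4.91%) had the lower and 91 (0.511%) the higher level. DESeq2, the other tool run on the same genes, called 1 member, Dnase2a, and 54 of the 13602 genes to which it gave an adjusted p (0.397%). No overlap with the lower level, seen in 2 members, was seen in 11.8% of all genes, and that with the higher level, seen in 0 members, in 2.27%. The members' median log2 fold change was -1.04, against -0.16 over all genes. Scaling to library totals moved the median over all genes to 0.05 and the genes with a higher level among those at an unadjusted p under 0.05 to 214 of 885, against 91 of 965 with TMM, and the sign of each member stayed as it was.

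**Figure D1:**
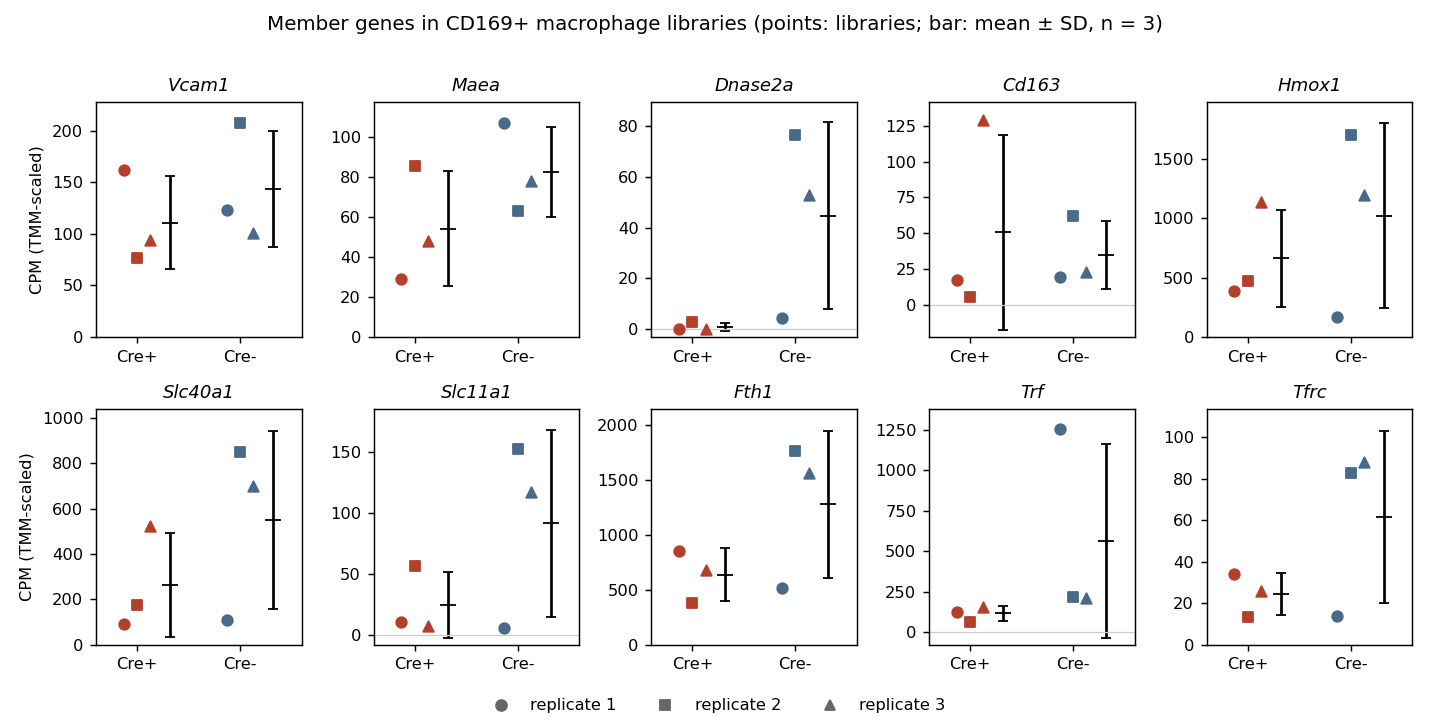
Level of each member gene in CD169+ macrophage libraries, in TMM-scaled CPM on linear axes that differ between panels. Points are the 3 Cre positive (left, red) and 3 Cre negative (right, blue) libraries, with replicate numbers by shape, and bars give mean ± SD. Dnase2a lies at 0 to 2.60 CPM in Cre positive libraries, and Cre negative replicate 1 (circle) lies apart from replicates 2 and 3 in Dnase2a, Hmox1, Slc40a1, Slc11a1, Fth1, Trf and Tfrc.

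The adhesion genes overlapped between the macrophage groups. Vcam1 (chromosome 3, 116109949 to 116129688, minus strand), whose product binds integrin alpha4 beta1 on erythroblasts, measured 162, 76.4 and 93.8 CPM in Cre positive libraries, against 123, 207 and 100.4 CPM in Cre negative ones. The highest and the lowest Cre positive libraries enclosed 2 of the 3 Cre negative ones, and the log2 fold change was -0.38 with a standard error (SE) of 0.45. Maea (chromosome 5, 33335509 to 33373296, plus strand), which also encodes a subunit of a ubiquitin ligase, measured 28.8, 85.3 and 47.9 CPM in Cre positive libraries, against 107, 62.7 and 77.6 CPM in Cre negative ones. Its log2 fold change was -0.61 (SE 0.56), and Cre positive replicate 2 lay above 2 of the Cre negative libraries.

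Dnase2a (chromosome 8, 84908560 to 84922915, plus strand) encodes the lysosomal acid nuclease without which, in mice, island macrophages fill with undigested DNA and the embryo becomes anemic. It measured 0, 2.60 and 0 CPM in Cre positive libraries, against 4.52, 76.8 and 53.1 CPM in Cre negative ones. In reads these were 0, 14 and 0, against 78, 1645 and 1152. The groups did not overlap, but Cre negative replicate 1 lay nearer to the Cre positive libraries than to the others of its own group. Levels of 3 reads, the floor taken for a count of 0, were 1.08, 0.558 and 0.522 CPM in the 3 Cre positive libraries, so that all 3 Cre negative libraries lay above the floor of each Cre positive one. The log2 fold change was -5.61 (SE 1.69), with an unadjusted p of 0.00406 and an adjusted p of 0.773 in edgeR's quasi-likelihood test. DESeq2 gave -5.46 with an adjusted p of 0.0451. Permuting the groups exactly on log2(CPM + 1), two-sided, gave p = 0.1, which is the least a 3 against 3 design can reach. Macrophage markers differed in the same direction: 17 of the 18 markers had the lower fitted level in Cre positive libraries, in which the list took 0.236% to 0.425% of reads, against 0.202% to 0.602% in Cre negative ones. Of all genes 56.1% had the lower fitted level, and none of the 18 markers was at 0 throughout. Unadjusted p-values under 0.05 by edgeR stood at 3 of the 18 markers, all lower. Lower without overlap were 0 of them, where 11.8% of all genes were. In Cre positive replicate 3 the list took 0.425% of reads, with Dnase2a at 0 CPM. In Cre negative replicate 1 it took 0.202%, with Dnase2a at 4.52 CPM. Stellate and mesenchymal markers, all 13 tested with the lower fitted level, took 0.0140% to 0.0198% of reads in Cre positive libraries. They took 0.177%, 0.0287% and 0.0357% in Cre negative ones. Of the 13, 7 lay lower without overlap. Cre negative replicate 1, with the highest of these shares, held the lowest Dnase2a level of its group. Endothelial markers lay on the other side, 14 of 18 with the higher fitted level. The part of any of these lists in the Dnase2a result was not tested. In bulk samples fewer cells of a type and less RNA per cell cannot be told apart. The antisense neighbour Mast1 overlaps this gene and took 201 reads in all 6 macrophage libraries together.

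Cd163 (chromosome 6, 124304656 to 124330527, plus strand), the receptor through which macrophages clear hemoglobin bound to haptoglobin, measured 17.6, 5.39 and 129 CPM in Cre positive libraries, against 19.8, 62.0 and 22.8 CPM in Cre negative ones. Cre positive replicate 3 held the highest level of the 6 libraries and replicate 2 the lowest. The log2 fold change of 0.54 (SE 0.95) rested on that library and was -1.64 without it. Hmox1 (chromosome 8, 75093621 to 75100589, plus strand), the heme oxygenase that macrophages induce on heme load, measured 383, 468 and 1132 CPM in Cre positive libraries, against 169.9, 1701 and 1194 CPM in Cre negative ones. Its groups overlapped through Cre negative replicate 1, which was the lowest of the 6, and the log2 fold change was -0.63 (SE 0.81), from -1.31 without Cre positive replicate 3 to -0.07 without Cre negative replicate 2.

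The genes that move iron out of macrophages or out of their phagosomes showed the same split within the Cre negative group. Slc40a1 (chromosome 1, 45908068 to 45926523, minus strand), the iron exporter ferroportin, measured 89.2, 177 and 524 CPM in Cre positive libraries, against 107, 851 and 698 CPM in Cre negative ones, a log2 fold change of -1.07 (SE 0.88). It was -2.11 without Cre positive replicate 3, the highest of its group, and -0.63 without Cre negative replicate 2. Slc11a1 (chromosome 1, 74375195 to 74386062, plus strand) encodes NRAMP1, which pumps iron out of the phagosome of macrophages. It measured 10.8, 56.5 and 7.83 CPM in Cre positive libraries, against 5.79, 153 and 117 CPM in Cre negative ones. Here Cre negative replicate 1 was the lowest of all 6 libraries, while the other two of its group were the highest. The log2 fold change was -1.87 (SE 1.01), and -3.32 without Cre positive replicate 2.

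Of storage, carriage and uptake genes, Fth1 and Trf had unadjusted p-values under 0.05. Fth1 (chromosome 19, 9980598 to 9985098, plus strand) measured 852, 377 and 677 CPM in Cre positive libraries, against 512, 1758 and 1559 CPM in Cre negative ones. Cre negative replicate 1 lay among the Cre positive libraries. The log2 fold change was -1.01 (SE 0.41, unadjusted p = 0.0286, adjusted p = 0.773 by edgeR). Fth1 has processed copies in the genome, and the 2 counted under Fth names, Fth-ps2 and Fth-ps3, took at most 78 reads in any macrophage library, so that the level of Fth1 is uncertain to the extent that reads were split or lost between copies.

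Trf (chromosome 9, 103204001 to 103230444, minus strand), which hepatocytes express most, measured 125, 64.3 and 156 CPM in Cre positive libraries, against 1254, 219 and 212 CPM in Cre negative ones. The groups did not overlap, and Cre negative replicate 1 lay far above the other two of its group. The log2 fold change was -2.29 (SE 0.70, unadjusted p = 0.00920, adjusted p = 0.773 by edgeR) and -0.89 without that library, in which hepatoblast markers took 0.303% of reads, against 0.0327% to 0.0784% in the other 5. Tfrc (chromosome 16, 32608920 to 32632794, plus strand), the transferrin receptor that is abundant on erythroblasts, measured 33.8, 13.4 and 25.9 CPM in Cre positive libraries, against 13.6, 82.9 and 88.1 CPM in Cre negative ones, a log2 fold change of -1.34 (SE 0.80). Erythroid markers took 0.00810% to 0.0252% of reads in Cre positive and 0.00680% to 0.0263% in Cre negative macrophage libraries. Of 13 erythroid markers tested 10 had the lower and 3 the higher fitted level, with a median log2 fold change of -2.68, and 4 lay lower without overlap. Over all genes 56.1% had the lower fitted level, the median was -0.16, and 11.8% lay lower without overlap. The erythroid gene Alas2 measured 0, 0.186 and 1.57 CPM in Cre positive libraries, against 14.2, 18.7 and 44.7 CPM in Cre negative ones. The part of hepatic and erythroid RNA in these values was not tested.

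Without Cre negative replicate 1, 7 members lay lower in every Cre positive library than in the other two Cre negative ones, where 20.5% of all genes did and 4.73% lay higher: Dnase2a, Hmox1, Slc40a1, Slc11a1, Fth1, Trf and Tfrc. Vcam1, Maea and Cd163 still overlapped. The log2 fold changes were then -6.17 for Dnase2a, -1.13 for Hmox1, -1.55 for Slc40a1, -2.44 for Slc11a1, -1.37 for Fth1 and -1.80 for Tfrc. The smallest adjusted p of a member was 0.277, for Fth1, so 0 members passed, while 7 genes of the whole table did. That library also held little of Adgre1 and C1qa (45.8 CPM, against 264 and 308 CPM in the other two of its group), and macrophage markers took 0.202% of its reads, against 0.602% and 0.545% in the other two. Endothelial markers took 1.58% to 2.00% of reads in Cre positive libraries, against 1.92%, 0.965% and 0.972% in Cre negative ones. In this share Cre negative replicate 1 lay within the Cre positive range. It lay above that range in hepatoblast markers (0.303%, against 0.0439% to 0.0784%) and in stellate and mesenchymal markers (0.177%, against 0.0140% to 0.0198%). The part of the cell mixture in the member values was not tested.

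**Figure D2:**
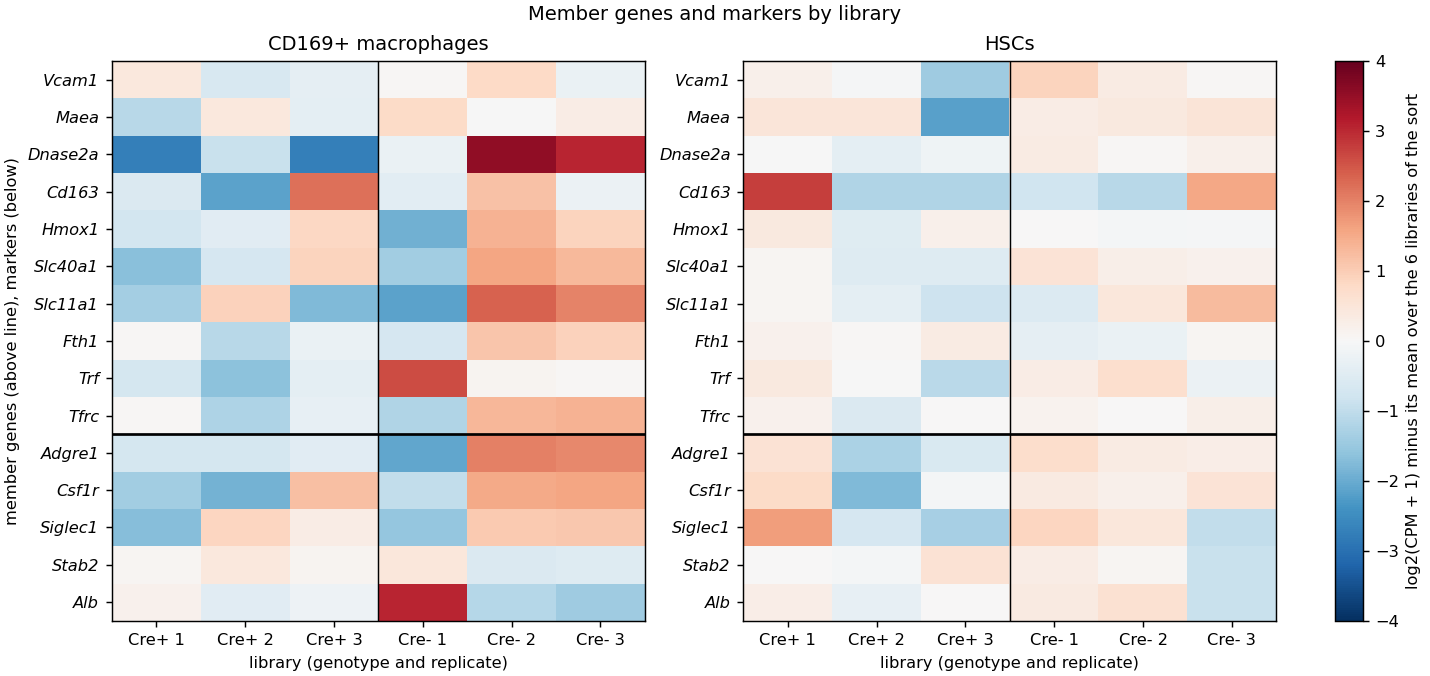
Member genes (above the line) and markers of macrophages (Adgre1, Csf1r, Siglec1), endothelium (Stab2) and hepatocytes (Alb) in each library, as log2(CPM + 1) minus its mean over the 6 libraries of a sort, with red above and blue below that mean. Columns are libraries, Cre positive left of the line. In macrophages Cre negative replicates 2 and 3 are red in Dnase2a, Hmox1, Slc40a1, Slc11a1, Fth1 and Tfrc as in Adgre1 and Csf1r, and Cre negative replicate 1 is not.

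In HSCs 7 of the 10 members had the lower mean in the libraries labelled Cre positive, as had 50.3% of all genes by fitted level. Slc40a1, the iron exporter, and Dnase2a lay lower in each of these libraries than in each Cre negative library. Fth1 had the higher mean, at 2091 ± 213 CPM in the libraries labelled Cre positive and 1632 ± 256 CPM in Cre negative ones (SD, n = 3 each). By edgeR with the same adjustment 0 members passed, where 0.0% of 13962 genes did (0 genes). At an unadjusted p under 0.05 stood 1 member, Slc40a1, and 892 genes (6.39%), 554 (3.97%) with the lower and 338 (2.42%) with the higher level. DESeq2 called 0 members and 129 of 13640 genes (0.946%). Absence of overlap with the lower level, seen in 2 members, was seen in 9.33% of all genes, and with the higher level, seen in 0 members, in 6.37%. The members' median log2 fold change was -0.40, against -0.00 over all genes.

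Slc40a1 measured 391, 259.8 and 262 CPM in HSC libraries labelled Cre positive, against 550.5, 444 and 417 CPM in Cre negative ones. The log2 fold change was -0.63 (SE 0.23, unadjusted p = 0.0255, adjusted p = 0.738 by edgeR). Endothelial markers, of which 12 of 18 had the lower fitted level in libraries labelled Cre positive, took 0.889% to 1.22% of reads in them and 0.919% to 1.73% in Cre negative libraries, with none at 0 throughout. Macrophage markers, of which 6 of 18 had the lower fitted level (50.3% of all genes), took 0.212% to 0.337% of reads in libraries labelled Cre positive and 0.218% to 0.251% in Cre negative ones. Sinusoidal cells and macrophages both express ferroportin, and the part of either in this value was not tested. Dnase2a measured 27.4, 21.03 and 24.3 CPM in libraries labelled Cre positive, against 35.0, 28.4 and 32.1 CPM in Cre negative ones, a log2 fold change of -0.39 (SE 0.39). The gap between the nearest libraries of the groups, 27.4 and 28.4 CPM, was smaller than the SD of either group (3.20 and 3.29 CPM). For Slc40a1 and Dnase2a the exact two-sided permutation test gave p = 0.1, the smallest possible.

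The other HSC values overlapped. Fth1 measured 2067, 1891 and 2315 CPM in libraries labelled Cre positive, against 1440.4, 1533 and 1923 CPM in Cre negative ones, a log2 fold change of 0.36 (SE 0.18), and 1 Cre negative library, replicate 3, lay above the lowest library labelled Cre positive. Vcam1 measured 176, 147 and 57.2 CPM in libraries labelled Cre positive, against 287, 193 and 159 CPM in Cre negative ones, a log2 fold change of -0.75 (SE 0.42). It ranged from -1.06 without replicate 1 labelled Cre positive to -0.40 without replicate 3 of that group. Maea measured 149, 148 and 22.8 CPM in libraries labelled Cre positive, against 130.5, 140.3 and 153 CPM in Cre negative ones. Its log2 fold change of -0.41 (SE 0.59) rested on replicate 3 labelled Cre positive and was 0.07 without it. That library held 40.1 CPM of Kit, against 126 and 162 CPM in replicates 1 and 2 labelled Cre positive. Its Hlf, at 203 CPM, was not lower than theirs (194 and 189 CPM).

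Hmox1 measured 602, 329 and 527 CPM in HSC libraries labelled Cre positive, against 464, 432 and 448 CPM in Cre negative ones, all within the span of the libraries labelled Cre positive. Its log2 fold change was 0.12 (SE 0.24), and -0.07 without replicate 1 labelled Cre positive. Slc11a1 measured 38.3, 27.2 and 19.9 CPM in libraries labelled Cre positive, against 24.3, 50.1 and 87.6 CPM in Cre negative ones, a log2 fold change of -0.92 (SE 0.52), and -0.39 without Cre negative replicate 3. Trf averaged 559 ± 253 CPM in libraries labelled Cre positive and 737 ± 222 CPM in Cre negative ones, and Tfrc 18.0 ± 4.87 CPM in libraries labelled Cre positive and 21.5 ± 1.64 CPM in Cre negative ones (SD, n = 3 each). The log2 fold change of Trf was -0.40 (SE 0.38). It ranged from -0.73 without replicate 1 labelled Cre positive to -0.09 without replicate 3 of that group. Cd163 was scarce, at 14.8, 0 and 0 CPM in libraries labelled Cre positive, against 0.336, 0.0644 and 5.81 CPM in Cre negative ones. Its reads came mostly from 1 library of each group (791 of 791 and 357 of 380), the SE of its log2 fold change was 3.00, and the sign turned without replicate 1 labelled Cre positive (-10.12).

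**Figure D3:**
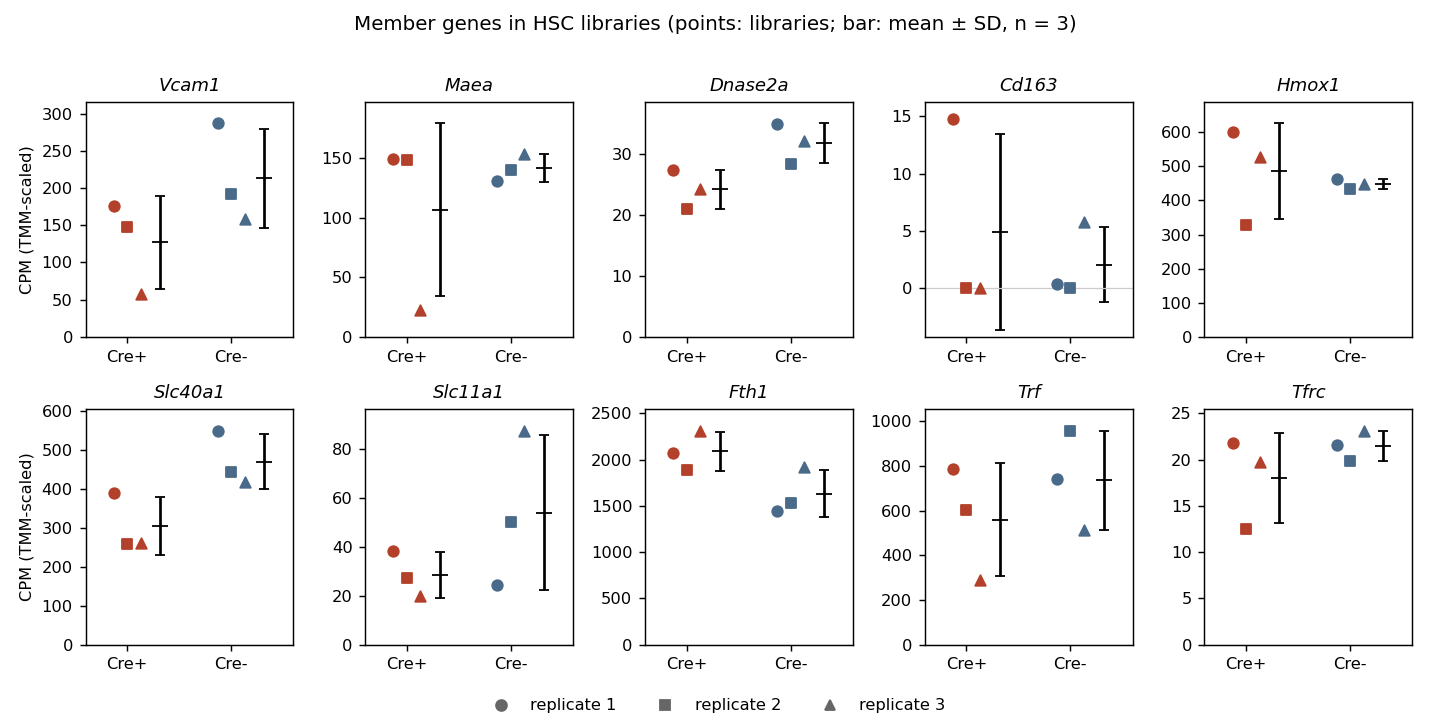
Level of each member gene in HSC libraries, in TMM-scaled CPM on linear axes that differ between panels, with the 3 libraries labelled Cre positive at the left (red) and the 3 Cre negative ones at the right (blue), replicate numbers by shape and bars for mean ± SD. The groups do not overlap in Slc40a1 (259.8 to 391 CPM, against 417 to 550.5 CPM) and Dnase2a (21.03 to 27.4 CPM, against 28.4 to 35.0 CPM).

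Whether the genotype difference itself differed between the sorts was tested as an interaction over 20128 genes in all 12 libraries. Depth cannot be told apart from genotype in the macrophage libraries, nor therefore in this interaction. Of the members, 0 passed edgeR's adjusted p of 0.05, where 14 genes (0.0696%) did, and 2 members (Dnase2a and Fth1) stood at an unadjusted p under 0.05, as did 8.62% of all genes. The macrophage difference minus the HSC difference was -5.19 for Dnase2a (SE 1.77, adjusted p = 0.488) and -1.35 for Fth1 (SE 0.48, adjusted p = 0.495), both by edgeR. For Trf it was -1.96 (SE 0.97, adjusted p = 0.617 by edgeR), and -0.46 without Cre negative macrophage replicate 1. Without that library it was -5.71 for Dnase2a, -1.70 for Fth1, -1.20 for Hmox1 (-0.72 with it), -0.88 for Slc40a1 (-0.42 with it) and -1.46 for Slc11a1 (-0.92 with it), and the smallest adjusted p of a member was 0.104 by edgeR, for Fth1. With all 12 libraries, the members other than Dnase2a, Fth1 and Trf lay between -1.07 (Tfrc) and 0.37 (Vcam1), with edgeR adjusted p-values of 0.99998. Without Cre negative macrophage replicate 1 Tfrc stood at -1.52. Without Cre positive macrophage replicate 2, the one with Dnase2a reads, Dnase2a alone of the members passed this test (edgeR adjusted p = 0.0104), as did 210 of 23309 genes in all. Both remaining Cre positive libraries are then at 0 reads of Dnase2a, so its fitted difference depends on the prior count.

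**Figure D4:**
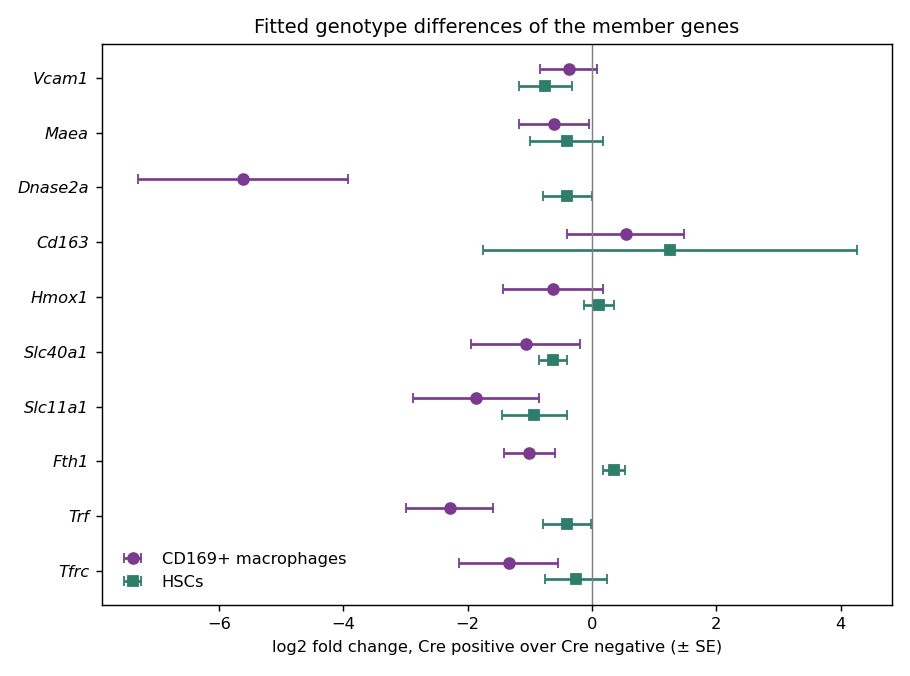
Fitted log2 fold change of each member gene, Cre positive over Cre negative, in CD169+ macrophages (circles) and HSCs (squares), with bars of 1 SE. Dnase2a in macrophages lies farthest from 0 (-5.61), Cd163 in HSCs has the widest error (SE 3.00), and Fth1 lies at -1.01 in macrophages and 0.36 in HSCs.

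Levels of different genes were compared as CPM per kilobase of exon, within a sort. In macrophages Hmox1 and Fth1 led both groups, with means of 377 and 183 CPM per kilobase in Cre positive and 583 and 368 CPM per kilobase in Cre negative libraries. Their libraries overlapped in each group. In Cre positive macrophages Fth1 was separated from the next gene, Trf (34.7 CPM per kilobase), and Dnase2a came last at 0.161 CPM per kilobase, separated from its neighbour Tfrc at 3.94. From Trf down to Tfrc all neighbours overlapped, with Slc40a1 (29.3), Maea (20.5), Vcam1 (12.5), Cd163 (9.28) and Slc11a1 (6.76 CPM per kilobase) between them. In Cre negative macrophages every pair of neighbours overlapped, and Cd163 came last at 6.38 CPM per kilobase, below Dnase2a at 8.32. The order of means was the same in both HSC groups. In libraries labelled Cre positive Fth1 led at 603 CPM per kilobase, apart from Hmox1 (278) and Trf (168), which overlapped, and then came Maea (40.6), Slc40a1 (33.8), Vcam1 (14.3), Slc11a1 (7.69), Dnase2a (4.50), Tfrc (2.91) and Cd163 (0.904 CPM per kilobase). In Cre negative libraries Fth1 stood at 470.5 CPM per kilobase, Hmox1 at 256, Trf at 222, Maea at 53.8, Slc40a1 at 52.3, Vcam1 at 24.0, Slc11a1 at 14.6, Dnase2a at 5.91, Tfrc at 3.47 and Cd163 at 0.379 CPM per kilobase. In both groups the neighbours Hmox1 and Trf, Maea and Slc40a1, and Vcam1 and Slc11a1 overlapped, as did Tfrc and Cd163 in libraries labelled Cre positive, and the other neighbours were separate.

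Other genes of heme, iron and the island were taken from 4 lists, in which 0 genes passed in either sort by edgeR. In macrophages 11 of 12 tested genes of heme uptake and breakdown had the lower level in Cre positive libraries (median log2 fold change -0.69, 3 at an unadjusted p under 0.05). Of all genes in macrophages, 56.1% had the lower fitted level and 5.42% an unadjusted p under 0.05 by edgeR, with a median of -0.16. Blvrb, a biliverdin reductase that acts after heme oxygenase, measured 3.24, 9.67 and 38.5 CPM in Cre positive libraries, against 12.1, 132 and 119 CPM in Cre negative ones. Slc48a1, the heme transporter of the phagolysosome, measured 33.1, 56.5 and 31.7 CPM in Cre positive libraries, against 59.6, 128 and 105 CPM in Cre negative ones, without overlap. Hp, the gene of the plasma protein haptoglobin, came almost wholly from Cre negative replicate 1 (135 CPM, against 0 to 5.21 CPM in the other 5 libraries).

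Of 16 tested genes of iron storage, uptake and export, 11 had the lower level in Cre positive macrophages (median -0.53). Of all genes 56.1% did (median -0.16). Slc25a28, an importer of iron into mitochondria, measured 5.76, 0.930 and 6.26 CPM in Cre positive libraries, against 37.5, 41.8 and 43.1 CPM in Cre negative ones. The 3 Cre negative libraries were close to each other here, replicate 1 included, and the log2 fold change was -3.24 (SE 1.18, unadjusted p = 0.0136, adjusted p = 0.773 by edgeR). Ftl1, the ferritin light chain, measured 24.5, 82.2 and 95.7 CPM in Cre positive libraries, against 124, 161 and 115 CPM in Cre negative ones, also without overlap. The list also held Lcp1, an actin-bundling protein with no known role in iron handling, at 223 ± 94.1 CPM in Cre positive and 356 ± 188 CPM in Cre negative libraries (SD, n = 3 each).

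Regulators of iron and heme were divided in macrophages, 7 of 12 having the lower and 5 the higher level (median -0.18). That was near all genes, of which 56.1% had the lower fitted level (median -0.16). Epas1, the gene of hypoxia-inducible factor 2 alpha, which endothelial cells express strongly, measured 621, 545 and 565 CPM in Cre positive libraries, against 441, 339.7 and 336 CPM in Cre negative ones. Bmp2, a ligand by which liver endothelium raises hepcidin, measured 271, 489 and 534 CPM in Cre positive libraries, against 346, 219 and 237 CPM in Cre negative ones. Bach1, a heme-sensing repressor of Hmox1, measured 80.2 ± 39.8 CPM in Cre positive and 122 ± 30.7 CPM in Cre negative libraries (SD, n = 3 each). Of 22 genes of island adhesion and engulfment, 14 had the lower level (median -0.44), against 56.1% of all genes (median -0.16). Axl, a receptor for apoptotic cells, measured 29.9, 51.7 and 127 CPM in Cre positive libraries, against 49.8, 338 and 338 CPM in Cre negative ones, and the integrin gene Itgav 33.5, 70.8 and 44.4 CPM in Cre positive libraries, against 70.4, 105 and 171 CPM in Cre negative ones. Adgre1 measured 60.1, 60.2 and 70.8 CPM in Cre positive libraries, between Cre negative replicate 1 and the other two.

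In HSCs the median log2 fold changes of these lists were 0.01 for heme uptake and breakdown (6 of 11 higher), -0.28 for iron storage, uptake and export (7 of 16 higher), -0.25 for regulators (5 of 14 higher) and -0.07 for island adhesion and engulfment (9 of 23 higher). Over all genes in HSCs the median was -0.00, and 50.3% had the lower fitted level. Spic, a transcription factor that in mice is needed for iron-recycling macrophages of the spleen, measured 26.4, 26.6 and 27.6 CPM in libraries labelled Cre positive, against 48.7, 49.8 and 67.0 CPM in Cre negative ones (log2 fold change -1.04, SE 0.33, unadjusted p = 0.0142, adjusted p = 0.689 by edgeR). Bmp2 measured 247, 146 and 144 CPM in libraries labelled Cre positive, against 498, 347 and 197 CPM in Cre negative ones, and Fbxl5, part of the ligase that degrades iron regulatory protein 2, 36.3 ± 15.96 CPM in libraries labelled Cre positive and 60.7 ± 7.76 CPM in Cre negative ones. Slc48a1 measured 108, 74.1 and 96.8 CPM in libraries labelled Cre positive, against 123, 169 and 171 CPM in Cre negative ones, again without overlap. Mcoln1, a lysosomal channel that lets iron out, measured 77.4, 63.4 and 95.4 CPM in libraries labelled Cre positive, against 136, 109.7 and 165 CPM in Cre negative ones. Blvra, the other biliverdin reductase, measured 98.4 ± 23.7 CPM in libraries labelled Cre positive and 73.1 ± 28.1 CPM in Cre negative ones, and Abcg2, a porphyrin exporter, 77.5 ± 49.4 CPM in libraries labelled Cre positive and 151 ± 21.6 CPM in Cre negative ones. The metal importer gene Slc39a8 averaged 60.6 ± 32.1 CPM in libraries labelled Cre positive and 98.7 ± 32.1 CPM in Cre negative ones, and the iron chaperone gene Pcbp1 574 ± 50.2 CPM in libraries labelled Cre positive and 693 ± 75.4 CPM in Cre negative ones (SD, n = 3 each). The integrin chains that erythroblasts and HSCs use to bind VCAM1 lay on opposite sides: Itga4 measured 77.03, 141 and 85.1 CPM in libraries labelled Cre positive, against 28.8, 53.8 and 68.6 CPM in Cre negative ones, and Itgb1 505, 395 and 412 CPM in libraries labelled Cre positive, against 776, 612 and 537 CPM in Cre negative ones. Palld, an actin scaffold reported in mice to matter for islands, measured 203, 236 and 264 CPM in libraries labelled Cre positive, against 147, 178 and 139 CPM in Cre negative ones.

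For each member the 2 genes with the most similar profile were found among 9953 genes, by the root mean square difference of log2(CPM + 1), centred within each sort, over all 12 libraries. Dnase2a was nearest to Tmem192, a lysosomal membrane protein gene (difference 0.475), and Otulinl (0.562), where its own profile had a root mean square of 1.78. Hmox1 was nearest to Ctsb (0.304) and Gpx3 (0.324), and Slc40a1 to Ctsa (0.336) and Gpx3 (0.350), Ctsa and Ctsb being genes of lysosomal cathepsins. Fth1 was nearest to the ribosomal protein gene Rpl13a (0.265) and Tomm7 (0.273), Tfrc to Ccdc25 (0.289) and Pnp (0.301), and Trf to Khdc4 (0.505) and Aldh1l1 (0.542). Slc11a1 had Apobec1 (0.580) and Tec (0.615), Maea had Dele1 (0.308) and Fxr1 (0.334), and Vcam1 had Thumpd1 and Ddx1 (both 0.289). Cd163 had the largest differences, its nearest being Spn (0.913) and Gnptab (0.926), where its own profile had a root mean square of 1.48. These differences also depend on how much a member varies. The root mean square of the member itself was 1.00 for Trf, 0.602 for Vcam1 and 0.591 for Fth1.

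RefSeq's table of promoter windows (GRCm38.p6) gave 7 windows of 5 members, Slc11a1, Cd163, Dnase2a, Tfrc and Fth1, searched on both strands. The core of the antioxidant response element, TGACNNNGC, was found in that of Dnase2a and in 12.4% of all 32851 windows. The site of the Notch factor RBPJ, written TGGGAA, was found for Slc11a1 and Fth1 and in 25.6% of all windows.

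A PU.1 type of site, GAGGAA, was found in the window of Slc11a1 and in 28.3% of all windows. The GATA site AGATAA was in none of the 7 and in 11.2% of all windows.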

How the data were processed

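RNA from sorted fetal liver cells was measured as read counts per gene in 12 libraries, 3 in each of 4 groups. Per the labels' protocols, 2000 HSCs or 1000 to 3000 macrophages were sorted per library, RNA was DNase-treated, and SMART-Seq v4 libraries, which do not mark strand, were made in 1 batch per sort (for macrophages from 1 ng of RNA with 11 cycles). The deposited values are whole-number counts of reads per gene with no normalization by the authors that the files show. For HSCs the submitters' processing notes name GRCm38 as the build, STAR 2.7.6a, and featureCounts from Subread 2.0.1. For macrophages they name mm10, the aligner and counter being not given in the sources used. Tables were therefore fitted apart except for the interaction, and levels are not compared between them. Every column of values belonged to a sample. Names came from GENCODE M21.

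Each table (56980 identifiers for macrophages, 32285 for HSCs) was filtered with filterByExpr, scaled by TMM and tested with edgeR 4.0.16 (robust glmQLFit and glmQLFTest, R 4.3.3), Cre positive minus Cre negative, at a Benjamini-Hochberg adjusted p of 0.05 over all genes tested. All 10 members passed the filter in both sorts. Each SE is the log2 fold change divided by the root of F. CPM of 3 reads was taken as the floor of a count of 0. Floors cover counting error alone: without molecular identifiers, PCR copies are counted as separate reads. The interaction was fitted on identifiers shared by both tables. Fits were tested on simulated data. Pairing of replicate numbers was checked by the correlation of deviations from group means. DESeq2 1.42.0, limma 3.58.1 (voom), other scalings, no filter, the replicate number as a block, thinning and leaving out each library were the alternatives. The members and lists were chosen with earlier results of these data known. Genes named from the lists are the 3 per list and sort with the smallest unadjusted p, provided the higher group averaged 5 CPM or more. C1qa and the hairpin pattern lie outside that rule and were chosen after the files were seen.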

Additional observations from a re-analysis of the deposited data

How the results depend on the processing

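In macrophages edgeR called 0 genes and 0 members, DESeq2 called 54 genes and 1 member (Dnase2a), and edgeR with no filter called 21 genes and 1 member (Trf, -2.34). The fit with no filter was not run without Cre negative replicate 1. With the filter and without that library, Trf stood at -0.89 (edgeR adjusted p = 0.791). Upper-quartile scaling, library totals and thinning to equal depth called 0. Leaving out 1 library gave 1 to 34 genes and 0 members, the most without Cre positive replicate 3. Thinning left Dnase2a below the filter, so its difference has no fitted value at equal depth. In HSCs DESeq2 called 129 genes and every other setting 0. The interaction, with 14 genes, had 6 with limma-voom, 9 with upper-quartile scaling, 107 with no filter (and 1 member, Fth1, -1.34) and 6 to 210 when 1 library was left out, with 0 to 1 members. Members without overlap numbered 2 to 7 in macrophages and 2 to 5 in HSCs when 1 library was left out, an alternative chosen after seeing the data. In macrophages 3 members lay lower with any Cre positive library left out, where 19.4% to 24.5% of all genes did. In HSCs 5 lay lower when Cre positive replicate 1 was left out (19.3% of all genes). For Cre positive replicate 2 the count was 4, of which 2 lay lower (15.8%) and 2 higher (11.6%), and for Cre negative replicate 3 it was 4, of which 3 lay lower (14.3%) and 1 higher (10.2%). Leaving out 1 library turned the direction of some members. In macrophages Cd163 ranged over -1.64 to 1.23, the lowest without Cre positive replicate 3. In HSCs Cd163 ranged over -10.12 to 4.61 and Hmox1 over -0.069 to 0.33, both lowest without Cre positive replicate 1, and Maea over -0.73 to 0.070, highest without Cre positive replicate 3. In the interaction Cd163 ranged over -4.06 to 9.79 (highest without HSC Cre positive replicate 1), Maea over -0.72 to 0.093 (above 0 without macrophage Cre negative replicate 1, macrophage Cre positive replicate 1 or HSC Cre positive replicate 1 or 2), Slc40a1 over -1.38 to 0.012 (above 0 without macrophage Cre negative replicate 2 or Cre positive replicate 1) and Vcam1 over -0.0034 to 0.68 (lowest without macrophage Cre positive replicate 1). With limma-voom the interaction turned for Cd163 (1.93) and Maea (0.37). The causes were not tested. All 40 member levels on library totals lay within 1 SD of those on TMM sizes.

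Deviations of same-numbered libraries correlated at -0.0158 to 0.0268 across genes in macrophages and -0.0334 to 0.0115 in HSCs, and not every library correlated best with its own number. In macrophages Cre positive replicates 1 and 3 did (0.0225 and 0.0268) and replicate 2 did not. Deviations from the mean of 3 libraries sum to 0, so this check cannot exclude that replicate numbers pair the samples. With the replicate block edgeR called 13 genes and 1 member in macrophages (Trf, -1.84, adjusted p = 0.0195), 0 in HSCs and 96 genes in the interaction. The block was not fitted without Cre negative macrophage replicate 1, in which Trf stood at 1254 CPM, against 219 and 212 CPM in its group. With the block the sign turned for Cd163 in macrophages (-0.31), Cd163 in HSCs (-4.72), and Cd163 (3.31) and Maea (0.033) in the interaction.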

Other observations

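Among Cre positive macrophage libraries, replicate 3 held the highest level of some macrophage transcripts and not of others, the genes being picked out after the values were seen. Csf1r, the receptor on which macrophages depend, measured 689 CPM there, against 114 and 81.3 CPM in Cre positive replicates 1 and 2. C1qa, a complement chain made by tissue macrophages, measured 235 CPM, against 43.9 and 39.8 CPM, and Spic 37.9 CPM, against 2.16 and 0.186 CPM. Cd163 (129 CPM) and Slc40a1 (524 CPM) were also highest in that library of the 3, while Siglec1, the gene of the sort marker CD169 (67.7 CPM, against 16.2 and 102 CPM), and Slc11a1 (7.83 CPM, against 10.8 and 56.5 CPM) were highest in replicate 2, Adgre1 (70.8 CPM, against 60.1 and 60.2 CPM) was close to the others and Dnase2a was at 0.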
